A study of Mus musculus with 16 samples.

Results

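The IGF-binding proteins are a family of secreted proteins that hold insulin-like growth factors (IGFs) outside cells. They are described here as the 8 genes Igfbp1 to Igfbp7 and Igfbpl1, chosen by gene symbol out of 47729 genes with values in 16 RNA sequencing libraries of the neonatal mouse cochlea. All 8 symbols had 1 row each, and 7 of them passed the filter on low values and were among the 16994 genes tested. Igfbp1 did not pass and is given by its levels.

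Most IGF in tissue fluid is bound to one of these proteins, which keeps it from its receptor, carries it, or releases it when a protease cuts the binding protein. The classical members bind IGF-I and IGF-II tightly, whereas Igfbp7, which binds them weakly, and Igfbpl1 are relatives that share the N-terminal domain. In the inner ear, IGF-I is known for its part in the growth of the cochlea and in the survival of hair cells.

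The libraries came from RiboTag mice, in which a Cre recombinase driven by the GLAST (Slc1a3) promoter and switched on by tamoxifen adds an HA tag to the ribosomal protein Rpl22. Control mice were GLAST CreERT/+; Rpl22 HA/+, and DTR mice carried in addition an Lgr5 DTR/+ allele, which puts the diphtheria toxin (DT) receptor under the Lgr5 locus, so that DT kills Lgr5+ supporting cells. According to the methods of the study, mice of both groups were given tamoxifen and DT at P1 and their cochleae were taken at P4, whereas the sample labels give no treatment for controls and "DTR treated" for the others. Each of the 4 replicates of a group was a pool of cochleae from several mice, from which spiral ganglion and lateral wall had been removed. A small part of each homogenate was kept as input, which holds RNA of the whole epithelium, and the rest went into the immunoprecipitation (IP) of tagged ribosomes. The tag marks GLAST-Cre+ cells, that is, inner phalangeal cells and part of the greater epithelial ridge (GER), and IP is not a purified cell population.

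Counted reads per library ranged from 28089836 to 41966310, and 3 reads corresponded to between 0.0715 and 0.107 CPM (the reads of a gene scaled to a common library total), a limit that covers counting error only. Lgr5 fell in DTR libraries, from 63.3 ± 3.03 to 15.9 ± 3.69 CPM in input and from 36.6 ± 3.99 to 9.38 ± 1.40 CPM in IP (mean ± SD, n = 4, adjusted p = 2.2e-08 and 3.5e-08). Lgr5 was 4.01-fold lower in DTR input than in control input and 3.82-fold lower in DTR IP than in control IP. The DTR allele sits in the Lgr5 locus of 1 allele. How much of this fall came from lost cells and how much from 1 lost intact allele was not tested. Slc1a3, the gene that gives GLAST, was not higher in IP than in input, with 236 ± 21.9 against 281 ± 14.3 CPM in controls (adjusted p = 0.1) and 215 ± 18.4 against 271 ± 19.8 CPM in DTR mice (adjusted p = 0.03). Of the 9 markers listed for medial supporting cells and GER, 2 were higher and 4 lower in control IP than in control input. Of all tested genes, 19.3% were higher and 20.7% lower in this comparison. Markers of hair cells, endothelial cells, macrophages and Schwann cells were mostly lower in IP, with 7 of 8, 6 of 8, 6 of 6 and 5 of 6 genes called in controls.

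Igfbp3 and Igfbp1, 2 neighbours on chromosome 11, had the highest and the lowest level of the family in control IP, and their start regions are shown for that contrast. Igfbp3 lies at chr11:7206086-7213923 on the minus strand and Igfbp1 at chr11:7197782-7202546 on the plus strand (GRCm38, GENCODE M21). They run towards each other with 3539 bases between their ends. The windows are RefSeq sequences (GRCm38.p6) of 300 bases, from 250 before to 50 after the gene start, at chr11:7213874-7214173 (minus strand) and chr11:7197537-7197836 (plus strand). They are written 5′ to 3′ with each CG dinucleotide in capitals.
Igfbp3: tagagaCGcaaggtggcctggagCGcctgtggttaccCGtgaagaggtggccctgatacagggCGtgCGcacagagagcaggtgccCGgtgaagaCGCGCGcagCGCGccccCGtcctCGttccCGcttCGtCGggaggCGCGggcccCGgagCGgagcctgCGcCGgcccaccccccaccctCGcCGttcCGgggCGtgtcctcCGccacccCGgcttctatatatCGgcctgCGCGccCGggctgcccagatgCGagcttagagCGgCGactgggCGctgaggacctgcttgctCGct
Igfbp1: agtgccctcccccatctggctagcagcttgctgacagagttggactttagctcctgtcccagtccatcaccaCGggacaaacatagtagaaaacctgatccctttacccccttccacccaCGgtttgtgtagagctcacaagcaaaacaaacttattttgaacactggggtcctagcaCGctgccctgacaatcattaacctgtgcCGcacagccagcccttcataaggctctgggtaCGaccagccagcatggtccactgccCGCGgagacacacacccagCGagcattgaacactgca

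The Igfbp3 window holds 37 CG dinucleotides, more than 94.4% of the 32851 mouse windows of this length, and the Igfbp1 window holds 8, against a median of 7 over all windows. Windows were found for 7 of the 8 genes, 2 of them for Igfbp2. CG counts in the others were 27 for Igfbp4, 33 for Igfbp7, 10 for Igfbp5 and 8 for Igfbp6, and 18 and 14 for Igfbp2. The TATA motif TATAAA, searched on both strands, was in 2 of the 8 windows and in 13.6% of all windows. It lay on the strand of the gene in Igfbp4 and on the opposite strand in Igfbp6. The Igfbp6 window ends at chr15:102144235, before the GENCODE M21 start of that gene at 102144362. The GC box GGGCGG, also searched on both strands, was in 2 windows (1 of Igfbp2 and that of Igfbp7) and in 35.7% of all. The AP-1 motif TGACTCA occurred in the downstream Igfbp2 window and in 5.2% of all windows.

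Igfbp3, the main carrier of IGFs in blood, had its highest level in control IP and its lowest in DTR input. In control input it measured 524, 523, 656 and 574 CPM in replicates 1 to 4. In control IP it measured 1339, 1291, 1462 and 1340.3 CPM. DTR input gave 163, 142, 147 and 147 CPM, and DTR IP gave 257, 237, 167 and 236 CPM. The 4 groups did not overlap, in the order control IP, control input, DTR IP and DTR input.

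**Figure D1:**
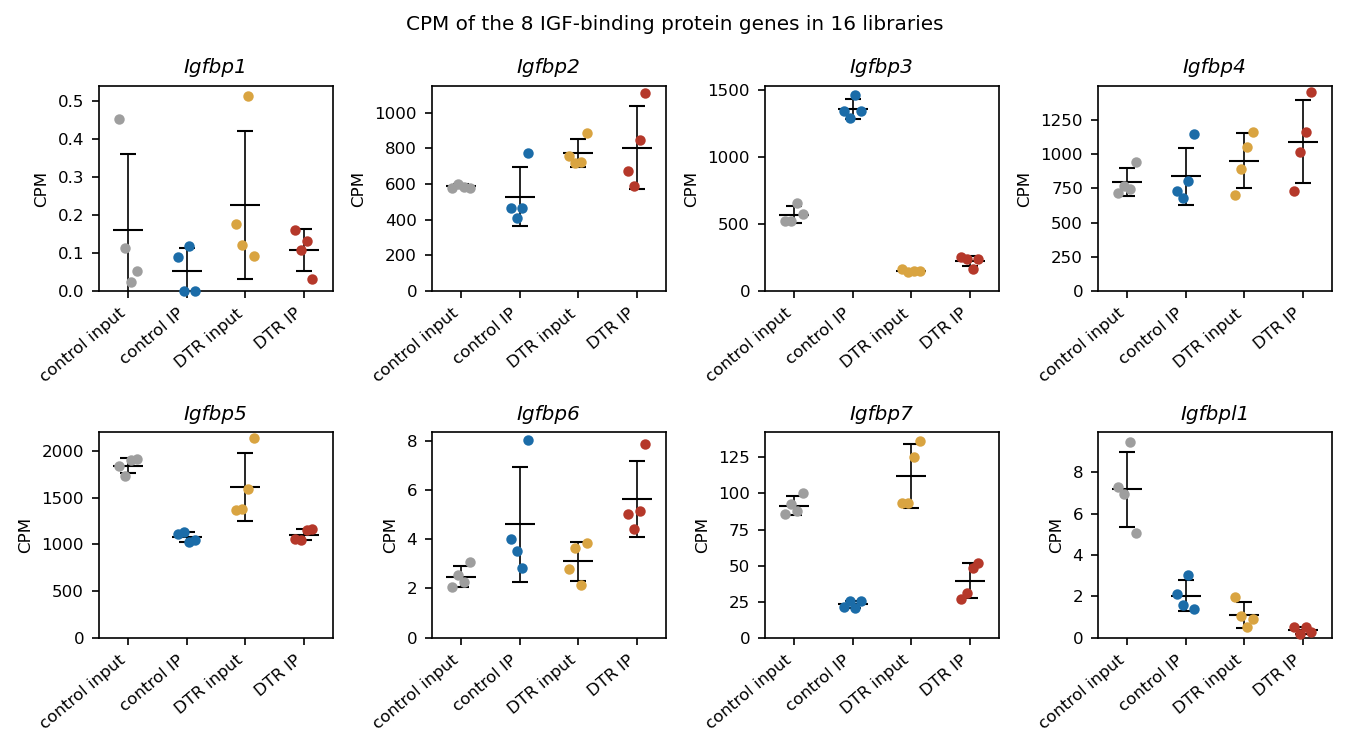
CPM as deposited (y axis, from 0, with its own scale in each panel) of the 8 genes in the 4 groups. Points are the 4 libraries of a group, horizontal marks and bars are the mean ± SD, and bars that would reach below 0 end at 0. Igfbp3 in control IP lies between 1291 and 1462 CPM, above every library of the other groups.

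In DTR IP, Igfbp3 was 5.89-fold lower than in control IP (log2 fold change, LFC, −2.56, SE 0.13, adjusted p = 8e-11, lower in 4 of 4 same-numbered replicates). The whole epithelium showed a 3.60-fold lower level after damage (LFC −1.85, SE 0.13, adjusted p = 4.8e-09). These bulk values cannot tell fewer cells that express a gene from less RNA per cell. The LFC in IP was lower than that in input by 0.71 (difference −0.71, SE 0.18), which did not pass the test after adjustment (adjusted p = 0.28). With the pool of IP and input as a block the SE was 0.15 and the adjusted p 0.076. Over 11 alternatives the adjusted p was 0.041 to 0.46, with the lowest from DESeq2. Between IP and input of the same mice, Igfbp3 was higher in IP in both groups, 2.51-fold in controls (LFC 1.33, SE 0.13, adjusted p = 1.6e-07) and 1.53-fold in DTR mice (LFC 0.62, SE 0.13, adjusted p = 0.00072).

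Lgr5, and with it the DT receptor, is made by part of the lateral supporting cells and also by inner phalangeal cells and the lateral part of the GER. Genes listed here as markers of lateral supporting cells moved with Igfbp3 after damage. Lgr5 itself, whose locus carries the DTR allele, is on this list. All 8 listed genes were lower in DTR input than in control input (5.21% of all tested genes). In IP, 7 of 8 were lower in DTR mice than in controls (7.3% of all tested genes). The median LFC of these genes was −2.14 in input and −1.89 in IP. Their summed level went from between 824 and 1009 CPM to between 343 and 401 CPM in input, and from between 1107 and 1287 CPM to between 306 and 444 CPM in IP. None of them was at or under 3 reads in all libraries of a group. Of the 9 markers of medial supporting cells and GER, 2 were lower and 3 higher after damage in input (5.21% and 7.17% of all tested genes). In IP, 3 were lower and 1 higher (7.3% and 8.44%). The part of either list in the Igfbp3 values was not tested. The genes whose pattern over the 16 libraries was most like that of Igfbp3 were Lfng (Pearson r = 0.988), Galnt14 (r = 0.984) and Gata3 (r = 0.979), where the libraries share their groups. Lfng, a modifier of Notch receptors, was 1 of the 8 genes on the lateral list. Its IP level was 279 ± 26.9 CPM in controls and 16.8 ± 3.58 CPM after damage (mean ± SD, n = 4). In controls it was 3.77-fold higher in IP than in input. In that comparison 2 genes of the list were higher and 3 lower (19.3% and 20.7% of all tested genes). The paper names Lfng and Igfbp3 together as markers of supporting cells and GER, so the list does not mark lateral cells alone.

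Igfbpl1, a relative of the family known from the developing brain, was the other gene that was lower after damage. It measured 7.27, 6.93, 9.45 and 5.05 CPM in control input and 2.12, 1.57, 3.03 and 1.41 CPM in control IP. Values of 1.98, 1.04, 0.511 and 0.883 CPM were measured in DTR input, and of 0.514, 0.178, 0.497 and 0.263 CPM in DTR IP. Control input lay above all other groups, and neighbours in the order control IP, DTR input and DTR IP overlapped. The DTR IP values rest on 5 to 16 reads per library.

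Igfbpl1 was 5.19-fold lower in DTR input than in control input (LFC −2.38, SE 0.26, adjusted p = 2.8e-06) and 3.35-fold lower in DTR IP than in control IP (LFC −1.74, SE 0.26, adjusted p = 9.2e-05). These LFC are on the scale of log2(CPM + 0.5), which understates the change of so low a gene: with edgeR on the recovered reads the LFC was −2.72 in input and −2.54 in IP. It was also lower in IP than in input, by an LFC of −1.49 in controls (SE 0.26, adjusted p = 0.00016) and −0.85 in DTR mice (SE 0.26, adjusted p = 0.014). The latter call was lost without replicate 1 of DTR input (LFC −0.64, adjusted p = 0.0607), and its LFC was −1.59 with edgeR. Of 6 Schwann cell markers, 5 were lower after damage in input (5.21% of all tested genes) and 1 in IP (7.3%). Their summed input levels were 2415 to 4117 CPM in controls and 1242 to 1911 CPM in DTR mice. In IP these sums were 831 to 1245 CPM and 615 to 827 CPM. The sum over 6 neuronal markers varied within groups, from 188 to 804 CPM in control input. The median LFC after damage was −0.83 in input and −0.33 in IP for the Schwann cell markers, and −0.61 and 0.05 for the neuronal ones. For the markers listed for lateral supporting cells it was −2.14 and −1.89. The part of any of these cell types in the Igfbpl1 values was not tested. Most like Igfbpl1 over the 16 libraries were Tmem179 (r = 0.962), Npy, which encodes neuropeptide Y (r = 0.959), and Ntng2 (r = 0.956).

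Igfbp2, a binding protein of fetal tissues and cerebrospinal fluid, rose in IP after damage. Control input gave 578, 602, 586 and 580.1 CPM, and control IP gave 468, 411, 464 and 777 CPM. After damage it measured 757, 719.9, 726 and 887 CPM in input and 672, 587, 845 and 1112.5 CPM in IP. All DTR input libraries lay above all control input libraries. In IP, replicate 4 of the controls lay above replicates 1 and 2 of DTR IP, but DTR IP was above control IP in 4 of 4 same-numbered replicates.

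In IP, Igfbp2 rose 1.59-fold after damage (LFC 0.66, SE 0.17, adjusted p = 0.0091). Over 12 alternatives its LFC ranged from 0.52 to 0.71 with adjusted p from 0.00074 to 0.087. The call was lost with edgeR, with DESeq2 and when libraries were centred on their median. In input the LFC was 0.47 (SE 0.17, adjusted p = 0.075), which did not pass the test, whereas it did once the replicate number was a block (adjusted p = 0.0144). It passed as well without replicate 4 of control IP (LFC 0.47, adjusted p = 0.0275). That library is in neither input group and enters only through the shared estimate of the spread and the normalization. Over 12 alternatives adjusted p ranged from 0.008 to 0.29. Igfbp2 did not differ detectably between IP and input, with an LFC of −0.08 in controls (SE 0.17, adjusted p = 0.72) and 0.11 in DTR mice (SE 0.17, adjusted p = 0.64). Most like it were Ifi27 (r = 0.936), Tpgs1 (r = 0.920) and Bst2 (r = 0.909), of which Ifi27 and Bst2 are known as interferon-induced genes.

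Igfbp4, which blocks IGF action until it is cut by the protease pregnancy-associated plasma protein A, had its highest values in replicate 4. It measured 715, 771, 748 and 943 CPM in control input and 729, 677, 804 and 1143 CPM in control IP. After damage it measured 703, 895, 1052 and 1164 CPM in input and 728, 1018, 1164 and 1456 CPM in IP. Replicate 4 was the highest library in each of the 4 groups, and all groups overlapped. Of 8 mesenchyme markers, 4 rose in IP after damage (8.44% of all tested genes). Their summed levels were 5457 to 6904 CPM in DTR mice against 4124 to 5262 CPM in controls. The part of these markers in the values of Igfbp2 and Igfbp4 was not tested.

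In DTR IP against control IP, Igfbp4 had an LFC of 0.51 (SE 0.18, adjusted p = 0.054), higher in 3 of 4 same-numbered replicates and just outside the threshold. Once the replicate number was a block the adjusted p was 0.00182, and the range over 12 alternatives was 0.0018 to 0.38. The difference also passed without replicate 1 of DTR IP (LFC 0.67, adjusted p = 0.0111) and without replicate 4 of control IP (LFC 0.63, adjusted p = 0.021). Without replicate 4 of DTR input it passed too (LFC 0.51, adjusted p = 0.0466). That library is in neither IP group and enters only through the shared estimate of the spread and the normalization. Between DTR IP and DTR input the LFC was 0.37 (SE 0.18, adjusted p = 0.1). That value passed once the pool was a block (adjusted p = 0.00692) and without replicate 1 of DTR IP (LFC 0.53, adjusted p = 0.0174). The LFC was 0.29 (SE 0.18, adjusted p = 0.36) between the inputs and 0.14 (SE 0.18, adjusted p = 0.55) between control IP and control input. Most like Igfbp4 was Nbl1, which encodes a secreted antagonist of bone morphogenetic proteins (r = 0.972), followed by Lcat (r = 0.928) and Kdelr3 (r = 0.917).

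**Figure D2:**
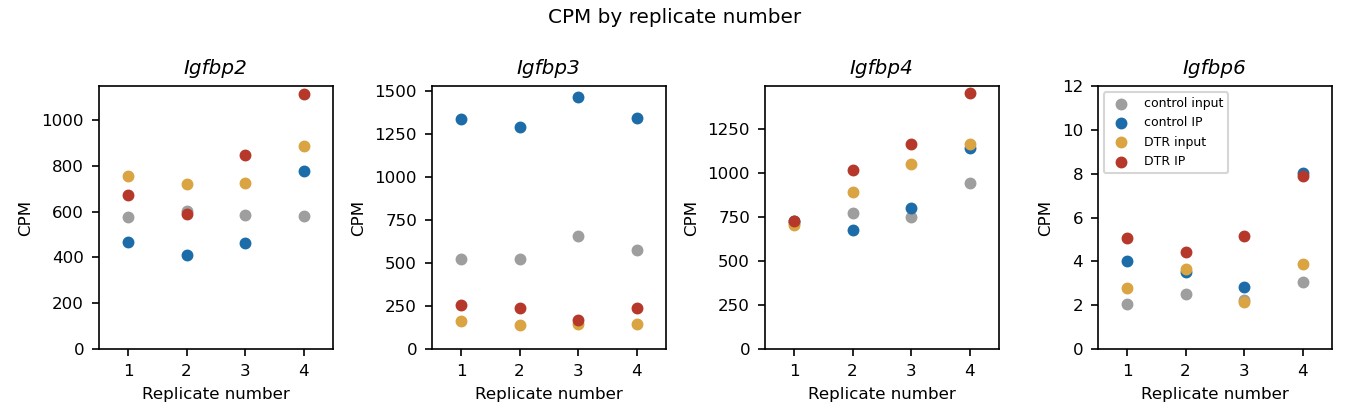
CPM (y axis, from 0) of Igfbp2, Igfbp3, Igfbp4 and Igfbp6 by replicate number (x axis), 1 point per library, coloured by group. In IP, replicate 4 is the highest for Igfbp2 (777 and 1112.5 CPM), Igfbp4 (1143 and 1456 CPM) and Igfbp6 (8.04 and 7.89 CPM) but not for Igfbp3.

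Igfbp5, which binds to the extracellular matrix, was lower in IP than in input. It measured 1839, 1729, 1900.4 and 1912 CPM in control input and 1107, 1133, 1027 and 1042 CPM in control IP. The DTR libraries held 1365, 1376, 1596 and 2145 CPM in input and 1061, 1050.1, 1152 and 1160.4 CPM in IP. Both IP groups lay below both input groups, and within IP or input control and DTR overlapped.

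The difference between IP and input was 1.73-fold in controls (LFC −0.79, SE 0.15, adjusted p = 0.00046) and 1.33-fold in DTR mice (LFC −0.41, SE 0.15, adjusted p = 0.042). The value in DTR mice was not stable. It fell short of the threshold without replicate 4 of DTR input (LFC −0.22, adjusted p = 0.152), and also without replicate 1 or 3 of control IP or replicate 1, 2 or 4 of DTR IP (LFC −0.41 to −0.35, adjusted p 0.0505 to 0.104). The control IP libraries are in neither DTR group and enter only through the shared estimate of the spread and the normalization. Over 12 alternatives the LFC between DTR IP and DTR input ranged from −0.56 to −0.16, with adjusted p from 0.00014 to 0.28. After damage, the LFC of Igfbp5 was 0.14 in IP (SE 0.15, adjusted p = 0.62) and −0.24 in input (SE 0.15, adjusted p = 0.38). Without replicate 4 of DTR input the latter became −0.45 (adjusted p = 0.0142). Most like Igfbp5 was Kdr, the vascular endothelial growth factor receptor of endothelial cells (r = 0.941), followed by Yeats2 (r = 0.930) and Mtor (r = 0.926). Markers of pericytes and of mesenchyme were lower in control IP than in control input as well, with 6 of 6 and 5 of 8 genes called. Of all tested genes, 20.7% were lower there. The part of these markers in the Igfbp5 values was not tested. Igfbp5 and Igfbp2 are neighbours on chromosome 1 that run towards each other with 5457 bases between them, and over the 16 libraries their r was −0.02.

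Igfbp7, a low-affinity relative that is abundant around blood vessels, was lower in IP than in input. It measured 85.4, 92.6, 87.5 and 100.4 CPM in control input and 21.3, 25.2, 20.6 and 25.5 CPM in control IP. The DTR libraries held 93.4, 93.1, 126 and 137 CPM in input and 27.0, 31.2, 48.3 and 51.8 CPM in IP. IP lay below input in all libraries, and DTR IP lay above control IP without overlap in CPM as deposited. After quantile normalization these 2 groups overlapped, with the lowest DTR IP value at 0.92 of the highest control IP value.

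Igfbp7 was 3.87-fold lower in control IP than in control input (LFC −1.95, SE 0.19, adjusted p = 3e-07), and in DTR mice IP was 2.93-fold below input (LFC −1.55, SE 0.19, adjusted p = 5.9e-06). In IP it rose 1.60-fold after damage (LFC 0.68, SE 0.19, adjusted p = 0.021), and in input its LFC was 0.28 (SE 0.19, adjusted p = 0.43). The rise in IP fell short of the threshold without replicate 1 or 3 of control IP (LFC 0.63 and 0.64, adjusted p = 0.0608 and 0.0622) and without replicate 3 or 4 of DTR IP (LFC 0.57 and 0.52, adjusted p = 0.0744 and 0.0741), and its adjusted p over 12 alternatives ranged from 0.0012 to 0.066. Igfbp7 overlaps Polr2b and Gm34648 on the opposite strand (chr5:77349240-77408041, minus strand), and the library kit does not mark strand, so that reads of these genes could be mixed.

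Endothelial and macrophage markers were lower in IP than in input, as Igfbp7 was. The summed level of 8 endothelial markers in controls was 310.3 to 358 CPM in input and 133 to 163 CPM in IP, and in DTR mice 386 to 480 CPM and 186 to 215 CPM. The sum over 6 macrophage markers was 90.1 to 95.7 CPM in input and 13.4 to 21.9 CPM in IP of controls, and 119 to 194 CPM and 32.1 to 47.7 CPM in DTR mice. In DTR IP against control IP, 4 of 6 macrophage markers were higher (8.44% of all tested genes). Of 8 endothelial markers 2 were higher, Pecam1 and Emcn, named after their values were seen, and Emcn alone went from 66.2 ± 5.32 to 104.5 ± 6.48 CPM. Of 6 pericyte markers, which like endothelial cells belong to vessels, 1 was lower (7.3% of all tested genes) and the rest did not pass. Their part in the Igfbp7 values was not tested. Most like Igfbp7 over the 16 libraries were Lcp1, a leukocyte actin-bundling protein (r = 0.981), Ocm, the calcium-binding protein oncomodulin of outer hair cells (r = 0.978), and Tie1, a receptor of endothelial cells (r = 0.978).

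Igfbp6, which prefers IGF-II over IGF-I, was low throughout and higher in IP. It measured 2.07, 2.53, 2.25 and 3.08 CPM in control input and 4.01, 3.52, 2.85 and 8.04 CPM in control IP. DTR input held 2.78, 3.63, 2.15 and 3.87 CPM, and DTR IP held 5.05, 4.41, 5.17 and 7.89 CPM. IP was above input in 4 of 4 same-numbered replicates in each group, with an overlap in controls and none in DTR mice. The LFC was 0.75 in controls (SE 0.27, adjusted p = 0.035) and 0.82 in DTR mice (SE 0.27, adjusted p = 0.023).

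Both calls of Igfbp6 depended on single libraries. In controls it was lost without replicate 4 of control IP (LFC 0.43, adjusted p = 0.144) and without replicate 1, 2 or 3 of control input (LFC 0.70 to 0.73, adjusted p 0.0681 to 0.0849). In DTR mice it was lost without replicate 4 of DTR IP (LFC 0.64, adjusted p = 0.0851) and without replicate 1 or 3 of DTR input (LFC 0.75 and 0.70, adjusted p = 0.06 and 0.0739). Over 12 alternatives adjusted p ranged from 0.0042 to 0.097 in controls and from 0.0024 to 0.07 in DTR mice. After damage the LFC of Igfbp6 was 0.22 in IP (SE 0.27, adjusted p = 0.66) and 0.15 in input (SE 0.27, adjusted p = 0.81). Most like it were Bcat2 (r = 0.928), Sytl1 (r = 0.920) and Htra3, itself a secreted protease with an IGF-binding domain (r = 0.915).

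Igfbp1, an insulin-regulated protein made mainly by the liver, was at or near the limit of detection. It measured 0.453, 0.113, 0.0242 and 0.0517 CPM in control input, and 0.0897 and 0.118 CPM in replicates 1 and 3 of control IP, with 0 reads in replicates 2 and 4. In DTR input it measured 0.177, 0.122, 0.511 and 0.0914 CPM and in DTR IP 0.161, 0.107, 0.133 and 0.0329 CPM. These values rest on at most 20 reads, all groups overlapped, and no difference was detectable at this depth.

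Across the family, 5 of the 7 tested genes were called in control IP against control input, where 39.9% of all tested genes were called. Of these, 2 were higher (Igfbp3 and Igfbp6, against 19.3% of all genes) and 3 lower (Igfbp5, Igfbp7 and Igfbpl1, against 20.7%). In DTR IP against DTR input, 5 of 7 were called (39.2% of all genes), 2 of them higher (18.6%) and 3 lower (20.5%). The groups did not overlap in CPM for 4 of 7 genes in controls (38.7% of all) and for 4 of 7 in DTR mice (32.8%). The median LFC of the 7 genes was −0.08 in controls and 0.11 in DTR mice, against −0.001 and −0.03 over all tested genes. No member reached the LFC of 2 that the fold criterion of the study sets for enrichment. Together with a separation of the groups above 1.5, this criterion was met by 1.26% of genes in controls and 0.977% in DTR mice. The paper nonetheless names Igfbp3 among additional enriched genes that it measured with nCounter, another assay of RNA levels. Separation divides the lowest library of the higher group by the highest library of the lower group.

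In DTR IP against control IP, 4 of 7 genes were called (15.7% of all), 2 higher (Igfbp2 and Igfbp7, against 8.44%) and 2 lower (Igfbp3 and Igfbpl1, against 7.3%). In DTR input against control input, 2 of 7 were called (12.4%), both lower (5.21%), while 7.17% of all genes were higher. The median LFC after damage was 0.22 in IP and 0.15 in input, against −0.004 and −0.02 over all tested genes. In CPM as deposited, the groups did not overlap for 3 of 7 genes in IP (17% of all) and for 3 of 7 in input (19.3%). Igfbp7 was among those in IP, and its groups overlapped after quantile normalization. With an absolute LFC of at least 1 and a separation above 1.5 as well, Igfbp3 remained in IP (2.47% of genes) and Igfbp3 and Igfbpl1 in input (2.34%). The separation of Igfbp3 was 4.45 in IP. The difference between the changes in IP and in input passed the test for 0 of 7 genes (0.0118% of all). At an unadjusted p under 0.05 it was Igfbp3 alone, against 5.12% of all genes. With the other tools, edgeR called 0 of the 7 for this difference (0% of all genes) and DESeq2 called 1, again Igfbp3 (0.288% of all). The 4 comparisons between groups share libraries, since each of the 4 groups enters 2 of them, and they share 1 estimate of the spread.

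**Figure D3:**
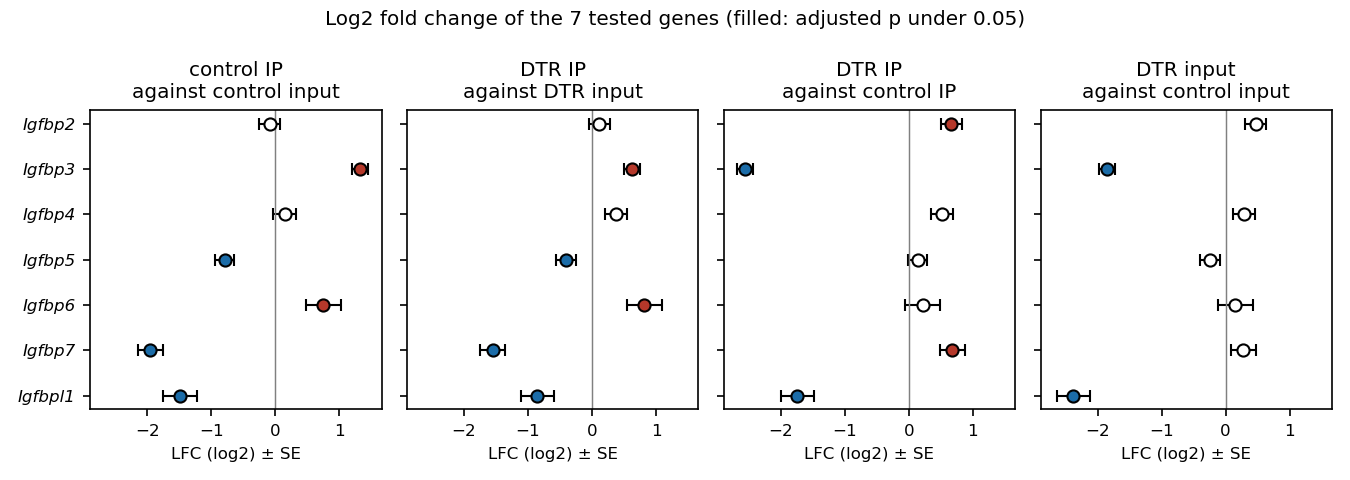
LFC (x axis, log2 scale) ± SE of the 7 tested genes in 4 comparisons. Filled points passed the test, red for higher and blue for lower in the group named first, and open points did not. Igfbp3 lies furthest to the right in control IP against control input (1.33) and furthest to the left in DTR IP against control IP (−2.56).

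Levels of different genes were compared as CPM per kilobase of exon length. In control IP, Igfbp3 led with 434 CPM per kilobase, before Igfbp2 with 287, Igfbp4 with 189.8 and Igfbp5 with 179. In DTR IP, Igfbp2 led with 435 CPM per kilobase, before Igfbp4 with 247, Igfbp5 with 184 and Igfbp3 with 71.6. In input, Igfbp2 had the highest mean in both groups, with 318 CPM per kilobase in controls and 418 in DTR mice. Igfbp5 was close to it in control input, with 307 CPM per kilobase, and lay above it in replicate 4 (318.4 against 314.1).

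The share of Igfbp3 in the summed CPM per kilobase of the 8 genes was 39.3% ± 4.5 in control IP and 7.63% ± 2.34 in DTR IP, 17.0% ± 1.5 in control input and 4.66% ± 0.79 in DTR input (mean ± SD, n = 4). The share of Igfbp2 was 25.3% ± 4.6 in control IP and 44.1% ± 4.1 in DTR IP, 29.8% ± 1.5 in control input and 40.2% ± 3.1 in DTR input. Shares of Igfbp3 and of Igfbp2 did not overlap between control and DTR in either fraction. The share of Igfbp4 was 16.9% ± 2.0 in control IP and 25.1% ± 3.3 in DTR IP, also without overlap, although its CPM overlapped. In input its share was 16.8% ± 1.6 in controls and 20.5% ± 2.4 in DTR mice, with overlap. The sum over the family overlapped between groups, with 1114 ± 136 CPM per kilobase in control IP, 976 ± 203 in DTR IP, 1067 ± 44.2 in control input and 1048 ± 154 in DTR input. A share falls when another gene rises and rises when another gene falls, so these values are not independent of each other.

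**Figure D4:**
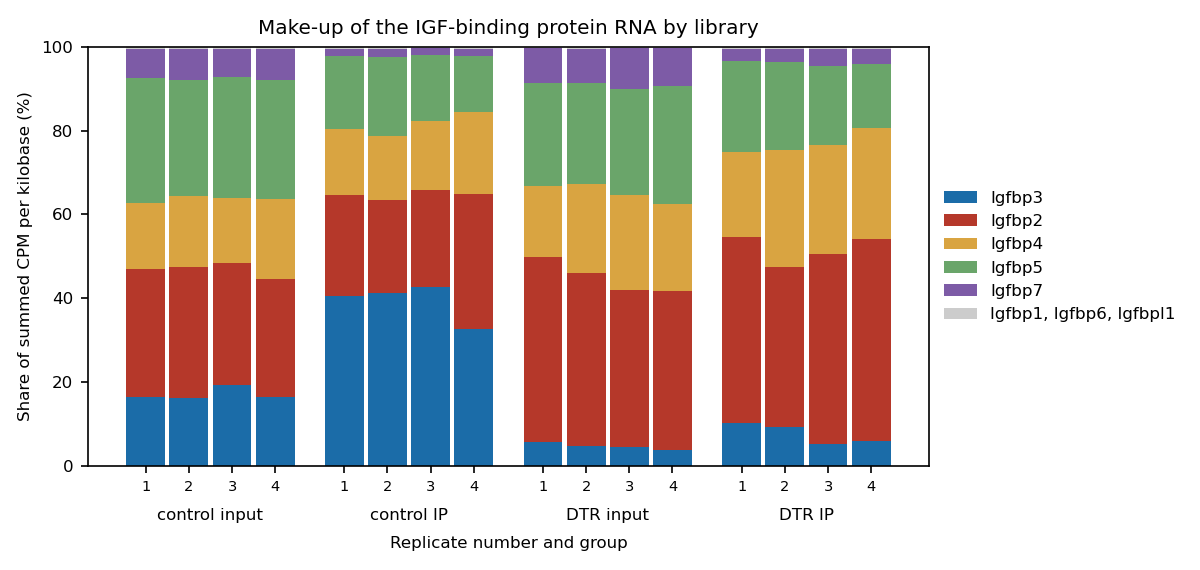
Share (y axis, percent) of each gene in the summed CPM per kilobase of the 8 IGF-binding protein genes, 1 bar per library, by group and replicate number (x axis). The Igfbp3 segment takes 32.7% to 42.8% in control IP and 5.27% to 10.1% in DTR IP, and the Igfbp2 segment takes 22.2% to 32.1% and 38.4% to 48.2%.

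Among the partners of the family, 5 of 6 ligand and receptor genes were tested. Of these, 4 were higher in IP than in input in both control and DTR mice, against 19.3% and 18.6% of all tested genes. Igf2, the ligand that Igfbp6 prefers, had the largest LFC, 3.49 in controls (SE 0.14, adjusted p = 4.8e-12) and 3.33 in DTR mice (SE 0.14, adjusted p = 7.3e-12), with 326 ± 14.9 CPM in control input and 3694 ± 525 CPM in control IP. Igf1 had the smallest, −0.19 in controls (SE 0.17, adjusted p = 0.42) and −0.31 in DTR mice (SE 0.17, adjusted p = 0.16). After damage, 1 of the 5 was called in IP (15.7% of all tested genes), the receptor gene Igf1r (LFC 0.35, SE 0.11, adjusted p = 0.036). In input the highest LFC after damage was 0.40 for Igf2 (SE 0.14, adjusted p = 0.067) and the lowest 0.03 for Igf1 (SE 0.17, adjusted p = 0.95). The median LFC of the 5 was 0.72 in controls and 0.86 in DTR mice for IP against input, and 0.23 in IP and 0.10 in input for damage.

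Of 4 tested signalling adaptors, Irs2, a substrate of the IGF and insulin receptors, had the highest LFC in each comparison, 0.68 and 0.63 for IP against input in control and DTR mice (adjusted p = 5.1e-05 and 0.00013). After damage its LFC was 0.41 in IP and 0.46 in input (adjusted p = 0.012 and 0.0062). Grb10, which binds and restrains these receptors, was the lowest in control IP against control input (LFC −0.62, SE 0.13, adjusted p = 0.0011). The lowest LFC after damage were −0.29 for Grb14 in IP (SE 0.12, adjusted p = 0.12) and −0.29 for Grb10 in input (SE 0.13, adjusted p = 0.2).

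Of 8 tested proteases, their inhibitors and complex partners, 2 were higher and 3 lower in control IP than in control input. Of all tested genes, 19.3% were higher and 20.7% lower there. Stc1, an inhibitor of pregnancy-associated plasma protein A, was at one end (LFC 1.51, SE 0.12, adjusted p = 3.2e-08) and Adamts1, a metalloproteinase, at the other (LFC −1.31, SE 0.18, adjusted p = 1e-05). Stc1 was also the 1 gene of this list called after damage in IP, where 15.7% of all tested genes were called. It fell by an LFC of 0.55 (SE 0.12, adjusted p = 0.0047). In input the values after damage ran from −0.35 for Adamts1 (SE 0.18, adjusted p = 0.25) to 0.48 for Stc2 (SE 0.22, adjusted p = 0.19).

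The last list held 9 tested genes of secreted proteins that carry an N-terminal IGF-binding domain outside the family. After damage in IP, 2 of the 9 rose (8.44% of all tested genes) and 1 fell (7.3%). In input, 2 rose (7.17%) and 2 fell (5.21%). Cyr61, a matrix-associated growth regulator, had the largest LFC in both, 1.15 in IP (SE 0.19, adjusted p = 0.00037) and 1.46 in input (SE 0.19, adjusted p = 2.9e-05). Htra4, a serine protease, had the smallest, −1.84 in IP (SE 0.22, adjusted p = 8.8e-06) and −1.69 in input (SE 0.22, adjusted p = 2.5e-05). Its levels were low, 1.65 ± 0.694 CPM in control IP against 0.158 ± 0.0891 CPM in DTR IP and 2.03 ± 0.472 against 0.338 ± 0.176 CPM in input, so that the added 0.5 CPM shrinks these LFC as it does for Igfbpl1. Nov was the lowest in IP against input, with an LFC of −2.35 in controls (SE 0.14, adjusted p = 5.6e-10) and −2.02 in DTR mice (SE 0.14, adjusted p = 4.3e-09). The median LFC of these 9 genes after damage was 0.04 in IP and −0.13 in input.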

How the data were processed

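RNA of 16 libraries was amplified with SMART-Seq v4, sequenced in pairs and aligned by the authors to GRCm38 with HISAT2 (the labels name TopHat), and counted on genes with HTSeq, with annotation release and strand setting not given in the sources used here. The authors deposited CPM per gene, reads scaled to the library total. Of 50316 genes listed, 2587 were NA in every library. At a tolerance of 0.01 reads, at least 99.996% of values were whole multiples of 1 read, so read counts were recovered for edgeR and DESeq2.

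CPM were quantile normalized, and log2(CPM + 0.5) was fitted with limma (version 3.58.1, R 4.3.3, mean-variance trend, two-sided) as 4 group means over all 16 libraries. A gene was tested if some group had 0.5 CPM or more in each of its 4 replicates, with Benjamini-Hochberg adjustment over 16994 genes and calls at an adjusted p under 0.05. All LFC are on the log2(normalized CPM + 0.5) scale, and levels are CPM as deposited. Separation used a floor of 1.08 CPM, the 10th percentile. The procedure was tested on simulated data. Exon lengths and overlaps came from GENCODE M21.

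IP and input of 1 replicate number come from 1 homogenate by the methods of the study. Deviations from group means correlated between same-numbered libraries (lowest r 0.288, means 0.357 to 0.407 over the 4 comparisons, against means of −0.135 to −0.119 and single values of up to 0.2901 for other numbers), so the numbers were taken to pair libraries also between control and DTR. Because deviations cancel out within a group, the negative means for other numbers follow from the same-number means and are not separate support. Pool (IP against input) or number (DTR against control) was a block in an alternative. Where nothing says that pools were handled apart, p-values measure the spread between these pools.

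Named genes were the 8 members, for each tested member the 3 genes with the highest Pearson r over 16 libraries, Lgr5, Slc1a3, and the genes with the largest and smallest LFC of each partner list. Members and lists were chosen with earlier results of these data known. Alternatives were CPM without quantile normalization, median centring, a length and GC adjustment, pseudocounts of 0.1 and 1, no filter, at least 2 CPM, edgeR (version 4.0.16, TMM), DESeq2 (version 1.42.0), the compared groups alone, the block, each library left out in turn and, chosen after seeing the data, replicate 4 of every group left out.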

Additional observations from a re-analysis of the deposited data

Results flagged for a closer look

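Of 32 combinations of a gene and a group, 1 held a library that stood apart from the other 3 by Dixon's test. Igfbp2 measured 777 CPM in replicate 4 of control IP, where the nearest replicate had 468 CPM and the lowest 411 CPM, a gap of 0.844 of the range. Chance alone gives about 1 such library in 20 groups.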

How the results depend on the processing

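Igfbp3 and Igfbpl1 kept their direction and their call in both damage comparisons under all 12 alternatives and with each library left out, as did Igfbp3, Igfbp5, Igfbp7 and Igfbpl1 in control IP against control input. Without the filter on low values, 3 genes in place of 5 were called in DTR IP against DTR input, where Igfbp5 and Igfbp6 were lost (more genes are then adjusted for). Leaving out 1 library gave 3 to 5 calls there, 4 to 5 in control IP against control input, 3 to 5 in DTR IP against control IP, 2 to 3 in input and 0 for the difference between the changes, which had 1 call with DESeq2. Without the separation criterion, 2 genes met the fold criteria in DTR IP against control IP. With the replicate block, 5 genes were called in control IP against control input (48.8% of all tested genes), 6 in DTR IP against DTR input (48.2%), 5 in DTR IP against control IP (23.3%), 3 in input (17.7%) and 0 for the difference between the changes (0.235%); it added Igfbp4 in DTR IP against DTR input and in DTR IP against control IP and Igfbp2 in DTR input against control input, and changed no other call. Differences that changed sign were small and not called, and the cause was not tested. Igfbp2 in DTR IP against DTR input was −0.0173 with median centring and −0.0232 with the length and GC adjustment, and −0.0015 to 0.23 with 1 library left out. Igfbp2 in control IP against control input was −0.25 to 0.011 with 1 library left out. Igfbp5 in DTR IP against control IP was −0.0060 with median centring, −0.0351 with edgeR and −0.0336 with DESeq2. The difference between the changes of Igfbp6 was −0.11 with edgeR, −0.0872 with DESeq2 and −0.11 to 0.38 with 1 library left out. Without replicate 4 of every group, the LFC of Igfbp5 in DTR IP against DTR input was −0.16 (adjusted p = 0.282) and that of Igfbp7 in DTR IP against control IP 0.60 (adjusted p = 0.0558), while Igfbp4 passed in IP (0.54, adjusted p = 0.0388) and Igfbp5 in input (−0.43, adjusted p = 0.0189). Depth limits Igfbp1, with at most 20 reads in any library, and Igfbpl1, with 5 to 16 reads per library in DTR IP and 20 to 67 in DTR input.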
